A study of Mus musculus with 23 samples.

Results

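Adrenaline and noradrenaline act through a short chain of genes, and 6 of them are described here in mice given oxaliplatin, a platinum drug used against colorectal cancer. Pnmt encodes the enzyme that makes adrenaline. Adrb1, Adrb3 and Adra2a encode adrenergic receptors, and Maoa and Maob encode the monoamine oxidases that break catecholamines down. The 6 genes were picked by symbol from 29894 gene identifiers listed over 3 tissue tables, with values of oxaliplatin against vehicle in these same libraries already known. Their own oxaliplatin values are therefore a description and carry no test. All mice were C57BL/6. The oxaliplatin mice received 10 mg/kg and the control mice vehicle, and tissues were taken after 8 weeks. The labels name neither age nor sex. RNA sequencing covered tibialis anterior, a fast muscle of the shin (5 oxaliplatin and 4 vehicle mice), subcutaneous white fat (4 and 3) and hypothalamus (4 and 3), with 1 library per mouse and tissue.

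Catecholamines are made from tyrosine in steps. Tyrosine hydroxylase (Th) makes L-DOPA, Ddc makes dopamine, Dbh makes noradrenaline, and Pnmt adds a methyl group to give adrenaline, chiefly in the adrenal medulla. Receptors encoded by Adrb1 and Adrb3 raise cyclic AMP through the stimulatory G protein, which in adipocytes starts lipolysis, and Adrb3 is the abundant form in rodent fat. The receptor encoded by Adra2a couples to inhibitory G proteins and lowers cyclic AMP. Monoamine oxidases A and B sit on the outer mitochondrial membrane and oxidise amines, A with a preference for noradrenaline and serotonin and B for phenylethylamine.

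Library totals were 22427670 to 32151271 counts in oxaliplatin muscle and 27344014 to 31195917 counts in vehicle muscle. In fat they were 16458523 to 17986524 with oxaliplatin and 16866078 to 22748362 with vehicle, and in hypothalamus 23553612 to 26426309 with oxaliplatin and 27345593 to 28529269 with vehicle. Levels are given in CPM, a count scaled to the library total after normalisation between libraries, and changes as the log2 ratio of oxaliplatin to vehicle, fitted by edgeR and given ± SE. A gene counts as called when its edgeR adjusted p over all genes of the tissue is below 0.05. Some libraries stand apart or go against their labels. In muscle, the title of 1 library names oxaliplatin mouse 5 while its treatment field says vehicle, and the title was followed. In fat, oxaliplatin mouse 5 lay close to the vehicle mice in Adrb3. Also in fat, vehicle mouse 4 held 132600 CPM of 8 muscle fibre markers, against 395 to 3270 CPM in the oxaliplatin mice and 15.02 and 1370 CPM in the other vehicle mice. In hypothalamus, oxaliplatin mouse 2 held 37.5 CPM of histaminergic and serotonergic neuron markers, against 77.9 CPM or more in every other library. Its Schwann cell markers summed to 1575 CPM, against 3061 CPM or more. Adipocyte markers in fat and neuron markers in hypothalamus were present in every library, at 9006 CPM or more in fat and 2126 CPM or more in hypothalamus.

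Pnmt was higher in oxaliplatin muscle than in vehicle muscle, about 10-fold, from a low starting level. It had 7.12, 3.25, 4.50, 3.79 and 6.24 CPM in oxaliplatin mice 1 to 5, against 0.451, 0.733, 0.349 and 0.481 CPM in vehicle mice 1 to 4. The lowest oxaliplatin library lay above the highest vehicle library, and mice 1 and 5 were the highest. These levels rest on 82 to 217 Pnmt counts per oxaliplatin library and 10 to 18 per vehicle library. The means were 4.98 ± 1.64 CPM with oxaliplatin (SD, n = 5) and 0.504 ± 0.163 CPM with vehicle (SD, n = 4), a 9.89-fold ratio of means and a fitted log2 fold change of 3.31 ± 0.31. Of the 4 genes of the set that passed the count filter in muscle, Pnmt was the 1 called and the 1 whose groups did not overlap. Over all 14737 genes tested in muscle, 0.163% were called and the groups did not overlap in 3.89%. Since Pnmt was picked for this pattern, nothing is read from that count. Grouping the library of oxaliplatin mouse 5 as vehicle gave a log2 fold change of 1.47 ± 0.85 and no call of Pnmt or any other gene (0%).

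**Figure D1:**
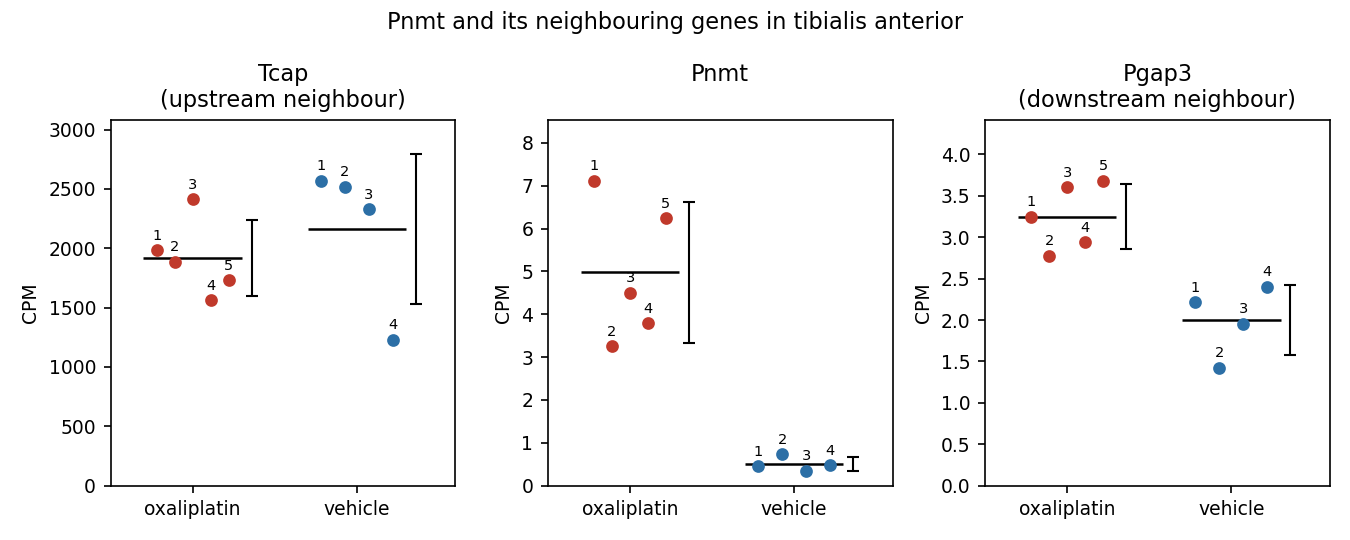
Levels in CPM of Tcap, Pnmt and Pgap3 in tibialis anterior, with 5 oxaliplatin mice (red) left of 4 vehicle mice (blue). Points are libraries with their mouse number, black lines are group means and bars are ± SD. Pnmt lay between 3.25 and 7.12 CPM with oxaliplatin and between 0.349 and 0.733 CPM with vehicle, while the Tcap groups overlapped.

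On GRCm38, Pnmt (ENSMUSG00000038216) lies on chromosome 11 from 98386450 to 98388181, plus strand. Its start is 1497 bases after the end of Tcap, on the same strand, a titin-binding gene that is among the abundant transcripts of muscle. No source used here says whether the counting used strand. Tcap averaged 1916 ± 322 CPM with oxaliplatin and 2162 ± 630 CPM with vehicle (SD, n = 5 and 4), and its groups overlapped (log2 fold change -0.17 ± 0.22, edgeR adjusted p = 0.898). In the other direction, Pgap3, a gene of the lipid remodelling of GPI anchors, ends 496 bases past Pnmt on the minus strand. Pgap3 averaged 3.25 ± 0.40 CPM with oxaliplatin and 2.0 ± 0.42 CPM with vehicle (0.69 ± 0.20, edgeR adjusted p = 0.238), and its groups did not overlap. The plot of the 3 neighbours shows groups that do not overlap for Pnmt and Pgap3 and groups that overlap for Tcap. The part of reads from either neighbour in the Pnmt counts was not tested.

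The enzymes that come before Pnmt had low counts in muscle. Th had 3, 3, 1, 7 and 4 counts in oxaliplatin mice 1 to 5, against 0, 0, 0 and 1 count in vehicle mice 1 to 4. Ddc had 2 to 16 counts per oxaliplatin library and 2 to 14 per vehicle library. Dbh had no row in muscle, where every row given summed to at least 10 over the libraries. Th and Ddc stayed below the count filter and were not tested. Of 11 markers of chromaffin cells and sympathetic neurons, 5 had a value in muscle, with a summed level of 7.22 to 10.3 CPM with oxaliplatin and 6.72 to 8.45 CPM with vehicle. Most of it was Slc18a2, the vesicular monoamine transporter, at 8.32 ± 1.77 CPM with oxaliplatin and 7.16 ± 0.61 CPM with vehicle (0.22 ± 0.17, edgeR adjusted p = 0.782). Bulk RNA cannot tell apart a change in the number of cells of a type and a change in RNA per cell, here and in the results that follow.

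Of the factors known to act on the Pnmt promoter, Egr1, an immediate early zinc finger factor, was measured at 4.71 ± 0.79 CPM in oxaliplatin muscle and 2.34 ± 0.41 CPM in vehicle muscle. Its groups did not overlap, but it missed the threshold over all genes (1.01 ± 0.19, edgeR adjusted p = 0.0604). Maz, a further zinc finger factor of this list, gave -0.18 ± 0.20 (adjusted p = 0.868), and none of the 4 factors tested in muscle was called.

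The genes whose log2 CPM followed Pnmt most closely over the 9 muscle libraries were Pecam1, Prrg1, Eloa, Zfp35 and Traf7. Pearson's r was 0.991 for Pecam1, an adhesion protein of endothelial junctions, and 0.967 to 0.978 for the other 4, out of 12643 named genes compared. The 9 libraries share the split into oxaliplatin and vehicle, so these values describe the pattern and nothing more. The 6 endothelial markers of the fixed list summed to 203, 185, 178, 173 and 188 CPM in oxaliplatin mice 1 to 5, against 142, 153, 114 and 135 CPM in vehicle mice 1 to 4. All 6 had a positive log2 fold change and 1, Pecam1, was called (0.68 ± 0.11, edgeR adjusted p = 0.0443). The 5 mast cell markers summed to 25.9, 14.7, 15.9, 18.03 and 25.01 CPM with oxaliplatin, against 4.35, 11.0, 9.40 and 16.1 CPM with vehicle, and none was called. Oxaliplatin mice 1 and 5, the highest in Pnmt, were also the highest in the mast cell sum, and they were the lowest of all 9 in the erythroid sum at 89.6 and 108 CPM, against 554 CPM or more in every other library. In the mast cell sum vehicle mouse 4 lay above oxaliplatin mice 2 and 3. These sums were taken from 17 marker lists with the Pnmt values known, so they are a description. Of 6 neuron markers, 3 had a value in muscle. Their sum was 5.87 to 7.72 CPM with oxaliplatin and 3.11 to 4.89 CPM with vehicle, without overlap. Of the 2 tested, 1 had a positive and 1 a negative log2 fold change, with a median of -0.13, and neither was called. The part of these cell types in the Pnmt result was not tested.

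Outside muscle Pnmt was scarcely detected. In hypothalamus it had 2, 1, 2 and 2 counts in oxaliplatin mice 2 to 5, against 1 count in each of the vehicle mice 1, 2 and 4. All these values are at or below 3 counts, so no fold change is given. Pnmt had no row in fat, where every row given summed to at least 10 over the libraries. At this depth a level of Pnmt below about 3 counts per library could not be told from none.

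Among the receptor genes, the groups were apart in Adrb1 in fat. Adrb1, the beta-1 receptor best known from heart, had 0.595, 1.43, 1.44 and 4.35 CPM in fat of oxaliplatin mice 2 to 5, against 21.6, 8.78 and 32.4 CPM in vehicle mice 1, 2 and 4. Every oxaliplatin library lay below every vehicle library, and the vehicle mice differed among themselves. The counts behind these levels were 11, 26, 30 and 74 with oxaliplatin and 323, 152 and 589 with vehicle. The means were 1.95 ± 1.65 CPM with oxaliplatin (SD, n = 4) and 20.9 ± 11.8 CPM with vehicle (SD, n = 3), with a log2 fold change of -3.42 ± 0.69. Leaving out vehicle mouse 4, the library with muscle transcripts, gave -2.94, and leaving out oxaliplatin mouse 5 gave -4.17.

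Adrb3, the beta-3 receptor of adipocytes, had 102, 87.2, 64.9 and 350 CPM in fat of oxaliplatin mice 2 to 5, against 390, 335 and 288 CPM in vehicle mice 1, 2 and 4. Mice 2 to 4 lay below all vehicle mice, and mouse 5 lay within the vehicle range. The means were 151 ± 133 CPM with oxaliplatin (SD, n = 4) and 338 ± 50.9 CPM with vehicle (SD, n = 3), with a log2 fold change of -1.16 ± 0.57. Without oxaliplatin mouse 5 it was -1.997. Adra2a, the inhibitory alpha-2A receptor, had 1.79, 2.25, 1.06 and 5.17 CPM in oxaliplatin mice 2 to 5, against 1.94, 5.49 and 3.47 CPM in vehicle mice 1, 2 and 4. Its groups overlapped over most of their range (-0.51 ± 0.57). Without vehicle mouse 2 the Adra2a value was -0.09, and without oxaliplatin mouse 5 it was -1.10.

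**Figure D2:**
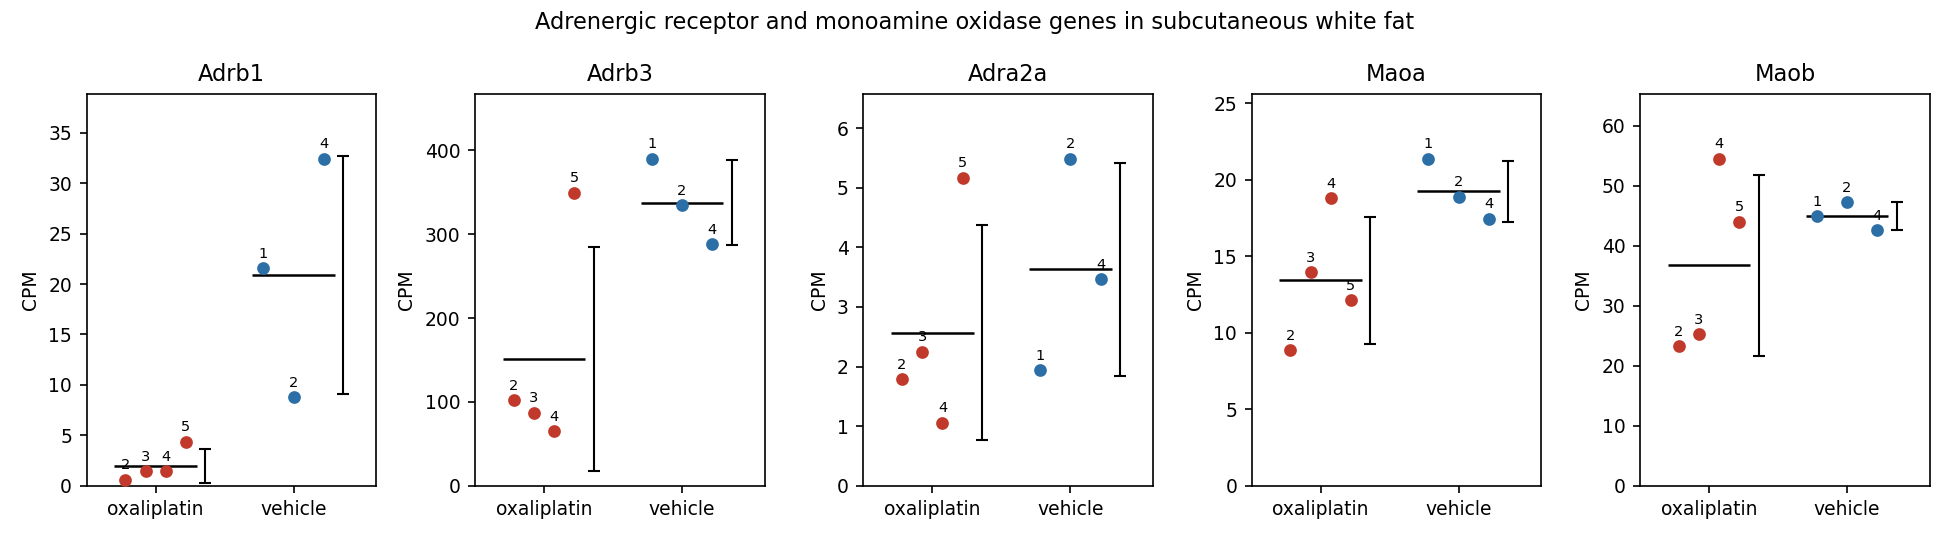
Levels in CPM of the 3 receptor and 2 monoamine oxidase genes in subcutaneous white fat, with 4 oxaliplatin mice (red) left of 3 vehicle mice (blue). Points are libraries with their mouse number, black lines are group means and bars are ± SD. The Adrb1 groups do not overlap, and Adrb3 of oxaliplatin mouse 5, at 350 CPM, sits among the vehicle mice.

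Of the 5 genes of the set tested in fat, 0 were called by edgeR and 1, Adrb1, had an unadjusted p under 0.05. Adrb1 was also the 1 whose groups did not overlap. No gene of fat was called by edgeR or limma-voom (0% of 19870), while 5178 had an unadjusted p under 0.05 in edgeR and DESeq2 called 2417. The groups did not overlap in 21.5% of the genes. Of the 5, DESeq2 called 1, Adrb1, where it called 12.2% of all genes, and limma-voom 0. A single edgeR fit over all 23 libraries also called Adrb1 alone of the 5, with 15.7% of all genes called in fat, 0.492% in muscle and 0.297% in hypothalamus. Without oxaliplatin mouse 5, edgeR called Adrb1 and Adrb3, that is 2 of the 5, where it called 25.5% of all genes. All of these values come from the comparison the genes were picked with. All 5 log2 fold changes in fat were below 0, while the median over all genes of fat was 0.03.

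The ratio of the beta receptors within a library does not depend on scaling between libraries. Per kb of exon, Adrb3 exceeded Adrb1 in fat by 172, 61.2, 45.0 and 80.6 times in oxaliplatin mice 2 to 5, against 18.1, 38.2 and 8.91 times in vehicle mice 1, 2 and 4. The ratio was thus higher in each of the 4 oxaliplatin mice, mouse 5 included, than in any vehicle mouse. The nearest values were 45.0 in oxaliplatin mouse 4 and 38.2 in vehicle mouse 2. This ratio restates the Adrb1 and Adrb3 values that the genes were picked with, so it is a description and carries no test. For single genes, the groups did not overlap in 21.5% of all genes of fat. In hypothalamus Adrb1 was the more abundant of the pair, with an Adrb3 to Adrb1 ratio of 0.0851 to 0.140 with oxaliplatin and 0.0729 to 0.117 with vehicle, and the groups overlapped. On GRCm38, Adrb1 (ENSMUSG00000035283) spans 56722199 to 56733113 and Adra2a (ENSMUSG00000033717) 54044151 to 54048982, both on the plus strand of chromosome 19. Adrb3 (ENSMUSG00000031489) spans 27225776 to 27250616 on the minus strand of chromosome 8. It overlaps Gm45470, an antisense gene, from 27228686 to 27240332 on chromosome 8, so without strand some Adrb3 reads could belong to it. The coding sequences of Adrb1 and Adrb3 share no identical run longer than 30 bases.

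Adipocyte markers were lower in some of the same fat libraries. The 8 markers summed to 9635, 9006, 9113 and 13360 CPM in oxaliplatin mice 2 to 5, against 19310, 13400 and 12740 CPM in vehicle mice 1, 2 and 4. Of the 8, 6 had a negative log2 fold change, with a median of -0.38, and none was called. Adipoq, the hormone adiponectin, gave -0.35 ± 0.25 (edgeR adjusted p = 0.388) and Plin1, which coats lipid droplets, -1.68 ± 0.82 (adjusted p = 0.231). Pparg, the master regulator of adipocytes, had the opposite sign at 0.39 ± 0.23 (adjusted p = 0.299). Fibroblast markers were low in the libraries low in Adrb3. The 6 markers summed to 666, 1164, 960 and 6277 CPM in oxaliplatin mice 2 to 5, against 3678, 5041 and 4655 CPM in vehicle mice 1, 2 and 4. Mouse 5 thus stood with the vehicle mice in this sum as it did in Adrb3, and 0 of the 6 markers were called over all 7 libraries. Of the 17 marker lists, those of Schwann cells, astrocytes and histaminergic and serotonergic neurons separated the fat groups fully in their sums. No marker of these lists was called. For single genes, the groups did not overlap in 21.5% of all genes of fat, so nothing is read from this pattern. The Schwann cell sum was 189 to 298 CPM with oxaliplatin and 305 to 540 CPM with vehicle. The astrocyte list summed to 581 to 1476 CPM with oxaliplatin and 475 to 560 CPM with vehicle, and the list of histaminergic and serotonergic neurons to 17.2 to 45.0 CPM and 8.95 to 9.25 CPM. These names are those of the gene lists, and whether astrocytes or such neurons were present in fat was not tested. The general neuron list summed to 3.73 to 8.00 CPM with oxaliplatin and 4.45 to 5.39 CPM with vehicle, with overlap. The part of any cell type in the receptor values was not tested.

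The closest followers of Adrb3 over the 7 fat libraries were Gucy1a2, a subunit of soluble guanylate cyclase, with a Pearson's r of 0.999, then Col5a3, a collagen V chain, Hydin, Gpx7 and Odf3l1 at 0.990 to 0.996. For Adrb1 they were Map3k7, the kinase TAK1, at 0.997, then Mzt1, Ndufs8, Zcchc17 and Bola3 at 0.994 to 0.995. The 2 lists share no gene. For Adra2a the closest was Tuba1c, an alpha tubulin, at 0.993, then Bnc2, Sox8, Gfra4 and Card9 at 0.960 to 0.973. For Maoa it was Kdm1b, a histone demethylase, at 0.981, then Ccdc34, Fndc8, Lrrc57 and Tomm7. For Maob it was Cdk5, a cyclin-dependent kinase, at 0.9799, then Atat1, Ccdc30, Tpp1 and Gstm6. As in muscle, the libraries share the treatment split, and these values over 7 libraries and 14643 genes are a description.

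The stretch just upstream of a gene start is shown for Adrb1 and Maoa, from a RefSeq table on GRCm38.p6 that covers 3 of the 6 genes, since cyclic AMP, the signal that these receptors govern, acts on genes through the letters TGACG, the core of its response element. Each line gives the 250 bases before the start, 5′ to 3′ on the plus strand, in lower case. Capitals mark TGACG or a GC box (GGGCGG), each searched on both strands, where a GC box on the opposite strand reads CCGCCC.
Adrb1, chr19:56721867-56722116: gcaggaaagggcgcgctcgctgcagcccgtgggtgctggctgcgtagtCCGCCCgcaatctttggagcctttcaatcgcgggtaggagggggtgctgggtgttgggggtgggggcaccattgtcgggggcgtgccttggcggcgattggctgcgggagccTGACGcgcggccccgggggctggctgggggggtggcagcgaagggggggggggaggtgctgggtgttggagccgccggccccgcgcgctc
Maoa, chrX:16619448-16619697: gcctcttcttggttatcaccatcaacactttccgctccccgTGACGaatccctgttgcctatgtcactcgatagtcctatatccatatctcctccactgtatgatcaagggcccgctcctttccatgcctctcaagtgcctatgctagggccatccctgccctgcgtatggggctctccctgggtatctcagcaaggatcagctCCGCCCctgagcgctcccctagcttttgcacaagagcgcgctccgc
Both held 1 TGACG and 1 GC box, and neither held AGAACA, the core letters of a glucocorticoid response element. Of all 32851 promoters in the table, 17.8% held TGACG, 32.7% a GC box and 16.1% AGAACA. The G and C content was 74.0% for Adrb1 and 56.8% for Maoa. For Adra2a, the table's start lies inside the gene as GENCODE M21 has it, so its stretch is not shown. A match in these letters is a description of the stretch and not a binding site.

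In hypothalamus the groups overlapped in each of the 3 receptor genes. Adra2a was the most abundant of the 3, with 74.7, 64.2, 65.1 and 60.6 CPM in oxaliplatin mice 2 to 5, against 49.0, 65.6 and 64.1 CPM in vehicle mice 1, 2 and 4. The groups overlapped, with a log2 fold change of 0.15 ± 0.12. Adrb1 had 17.3, 9.42, 14.99 and 12.1 CPM with oxaliplatin, against 11.4, 9.14 and 10.2 CPM with vehicle (0.39 ± 0.20). Adrb3 had 1.97, 1.32, 1.88 and 1.03 CPM with oxaliplatin, against 1.33, 0.936 and 0.738 CPM with vehicle (0.62 ± 0.33). Oxaliplatin mouse 2 was the highest library in all 3. Without it the values were 0.09 for Adra2a, 0.25 for Adrb1 and 0.49 for Adrb3. None of the 5 genes of the set tested there was called or had groups that did not overlap, and none had an unadjusted p under 0.05, where edgeR called 0.148% of 18941 genes and the groups did not overlap in 9.93%. DESeq2 and limma-voom also called 0 of the 5.

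In muscle the 3 receptor genes were near the detection limit. Adrb1 had 0 to 3 counts per oxaliplatin library and 0 to 5 per vehicle library, and Adra2a had 0 to 3 and 2 to 8. Neither passed the count filter. Adrb3 had 1 to 13 counts with oxaliplatin and 3 to 14 with vehicle, with overlapping groups (0.16 ± 0.56), and its sign changed to -0.05 at the lowest when 1 library was left out.

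**Figure D3:**
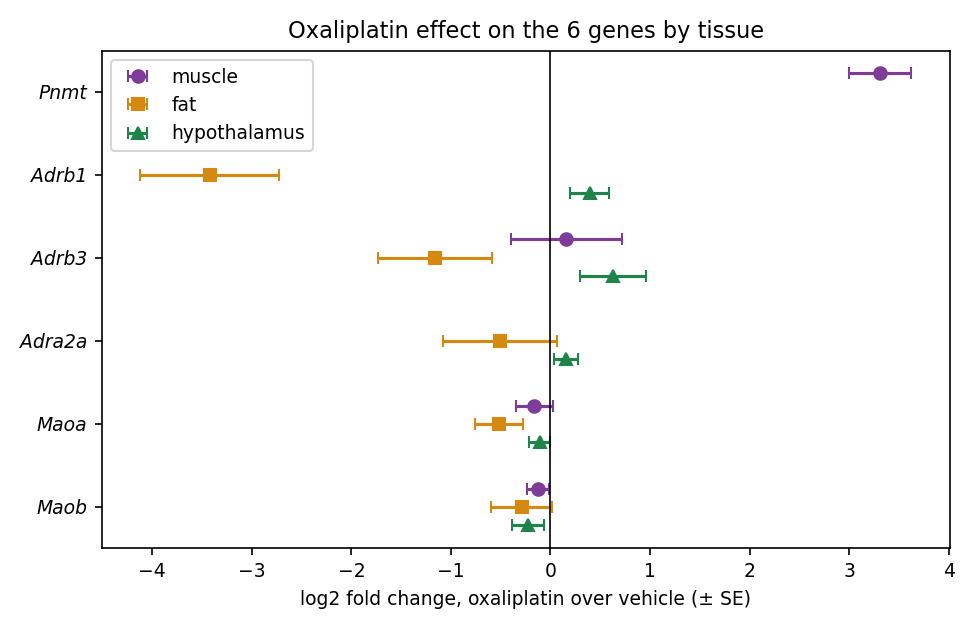
Log2 fold change of oxaliplatin over vehicle (x axis, bars are ± SE from edgeR) for each of the 6 genes in muscle (purple circles), fat (orange squares) and hypothalamus (green triangles), where the gene passed the count filter. Pnmt in muscle stands at 3.31 and Adrb1 in fat at -3.42, while all values of Maoa and Maob lie between -0.52 and -0.11.

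The monoamine oxidases differed less between the groups than Adrb1 and Adrb3 did in fat. Maob had 23.3, 25.3, 54.5 and 44.0 CPM in fat of oxaliplatin mice 2 to 5, against 44.9, 47.3 and 42.6 CPM in vehicle mice 1, 2 and 4. Oxaliplatin mice 2 and 3 lay below the vehicle range and mouse 4 above it (-0.29 ± 0.30). Maoa had 8.87, 13.95, 18.8 and 12.1 CPM in the same oxaliplatin mice, against 21.4, 18.9 and 17.5 CPM with vehicle. Mice 2, 3 and 5 lay below the vehicle range and mouse 4 within it (-0.52 ± 0.25). In both genes the oxaliplatin mice were more spread out, with a coefficient of variation of 30.9% against 10.3% for Maoa and 41.0% against 5.24% for Maob.

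In muscle Maob had 19.9, 20.7, 22.9, 24.4 and 21.6 CPM in oxaliplatin mice 1 to 5, against 23.1, 26.9, 20.4 and 25.1 CPM in vehicle mice 1 to 4 (-0.13 ± 0.11). Maoa had 5.64, 6.07, 5.10, 7.14 and 5.47 CPM, against 6.40, 4.32, 7.79 and 7.83 CPM (-0.16 ± 0.18). Both genes overlapped between the groups. In hypothalamus Maoa had 33.9, 41.8, 44.3 and 43.7 CPM in oxaliplatin mice 2 to 5, against 45.5, 43.4 and 43.5 CPM in vehicle mice 1, 2 and 4 (-0.11 ± 0.11). Maob had 24.0, 27.1, 39.4 and 35.4 CPM, against 35.9, 35.9 and 38.7 CPM (-0.22 ± 0.16). Without oxaliplatin mouse 2, the lowest in both genes, the values were -0.03 for Maoa and -0.11 for Maob. The oxaliplatin libraries numbered 2 and 3 were the lowest in Maob, as were those of these numbers in fat, and the groups overlapped. Libraries of the same number in different tissues were not shown to come from 1 mouse.

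The genes Maoa (ENSMUSG00000025037) and Maob (ENSMUSG00000040147) lie tail to tail on chromosome X, on the plus strand from 16619698 to 16687818 and on the minus strand from 16709282 to 16817366, with 21464 bases between them. They come from a duplicated gene, so their reads could in part be interchangeable. The longest identical run between their open reading frames, 1581 bases in Maoa and 1563 in Maob, was 35 bases, which is shown because reads no longer than it could fit both genes.
Maoa and Maob, shared run: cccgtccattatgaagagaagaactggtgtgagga

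Per kb of exon, Maob exceeded Maoa more in muscle and fat than in hypothalamus. The ratio of Maob to Maoa was 5.10 to 6.70 in oxaliplatin muscle and 3.92 to 9.32 in vehicle muscle, 2.71 to 5.43 in oxaliplatin fat and 3.14 to 3.74 in vehicle fat, and 0.969 to 1.33 in oxaliplatin hypothalamus and 1.18 to 1.33 in vehicle hypothalamus. The groups overlapped within each tissue. Every muscle and fat library had a higher ratio than every hypothalamus library. Muscle libraries were made with another kit than the rest, so a level in muscle is only set beside the others.

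**Figure D4:**
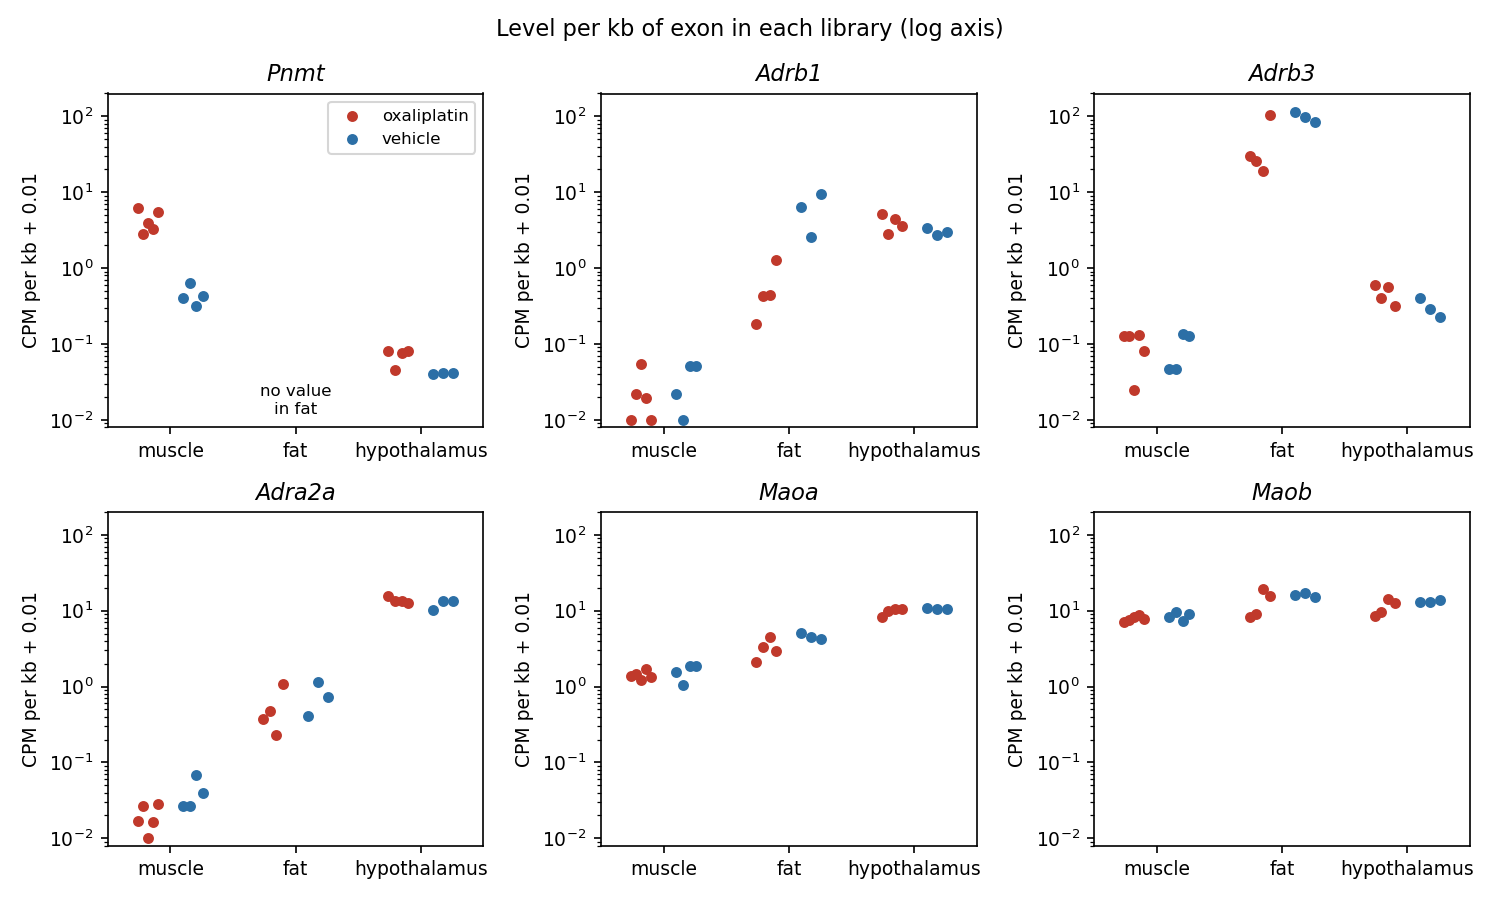
Level of each of the 6 genes in every library, as CPM per kb of exon with 0.01 added (log axis), by tissue, with oxaliplatin (red) left of vehicle (blue). Adrb3 is highest in fat, Adra2a in hypothalamus and Pnmt in muscle, while Maob stays between 7.14 and 19.5 CPM per kb in all 23 libraries.

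The tissue levels were compared between fat and hypothalamus with vehicle, since those libraries share a kit and the treatment does not enter. The genes were chosen with earlier results of these data known, so the p-values below describe the levels and are no independent test. In 1 edgeR fit over 14 libraries, 67% of 20892 genes were called, so a call by itself is common. Adrb3 was higher in fat, with 319 ± 47.7 CPM in vehicle fat and 1.10 ± 0.32 CPM in vehicle hypothalamus (SD, n = 3 each; log2 difference 8.17 ± 0.70, edgeR adjusted p = 3.35e-07). Adra2a was lower in fat, with 3.44 ± 1.73 CPM and 65.3 ± 10.7 CPM in hypothalamus (-4.24 ± 0.48, adjusted p = 4.15e-06). Maoa was lower in fat, with 18.2 ± 1.8 CPM and 48.4 ± 0.7 CPM in hypothalamus (-1.41 ± 0.21, adjusted p = 5.47e-05). Adrb1 missed the threshold at 19.7 ± 11.0 and 11.2 ± 1.1 CPM (0.81 ± 0.53, adjusted p = 0.193), and so did Maob at 42.4 ± 2.7 and 40.4 ± 2.0 CPM (0.07 ± 0.29, adjusted p = 0.834). Per kb, the order in vehicle fat was Adrb3 at 100 ± 15.1, Maob at 16.1 ± 0.8, Adrb1 at 6.19 ± 3.50, Maoa at 4.62 ± 0.47 and Adra2a at 0.751 ± 0.369 CPM per kb (SD, n = 3). The ranges of Adrb1 and Maoa overlapped. In vehicle hypothalamus the order was Maob at 13.2 ± 0.6, Adra2a at 12.3 ± 1.9, Maoa at 10.6 ± 0.3, Adrb1 at 3.03 ± 0.34 and Adrb3 at 0.297 ± 0.090 CPM per kb, with overlapping ranges for Adra2a and its neighbours on either side.

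The oxaliplatin effect on Adrb1 was -3.81 ± 0.74 (log2) in fat minus hypothalamus, and that on Adrb3 was -1.78 ± 0.75. For Maoa and Maob this difference was -0.41 ± 0.28 and -0.06 ± 0.38. Both effects were known when the genes were picked, so these differences are given without a test.

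A further 83 genes of catecholamine handling and adrenergic signalling, listed with earlier results of these data known, put the set in context. They cover synthesis and its biopterin cofactor, vesicles and uptake, breakdown, the other receptors, G proteins and adenylyl cyclases, desensitisation, cyclic AMP effectors, cyclic AMP-responsive genes and factors of the Pnmt promoter. Of these, 76, 79 and 81 had a value in muscle, fat and hypothalamus. edgeR called 0 of 67 tested in muscle, 0 of 76 in fat and 0 of 79 in hypothalamus. Without oxaliplatin mouse 5 it called 30 in fat and 5 in hypothalamus, where it called 25.5% and 3.49% of all genes. At an unadjusted p under 0.05 there were 9, 33 and 13, which is 13.4%, 43.4% and 16.5%, against 9.60%, 26.1% and 10.2% of all tested genes. DESeq2 called 4, 15 and 2 of them, where it called 1.72%, 12.2% and 1.35% of all genes, and limma-voom called 0 in each tissue, where it called 0.115%, 0% and 0.0845%. The groups did not overlap in 4, 21 and 7 of these genes, that is 5.97%, 27.6% and 8.86%, beside 3.89%, 21.5% and 9.93% of all genes. Their median log2 fold change was -0.03 in muscle, -0.18 in fat and 0.02 in hypothalamus, against -0.01, 0.03 and 0.01 over all genes. As the lists were drawn up with earlier results known, these shares and medians are a description and carry no test.

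**Figure D5:**
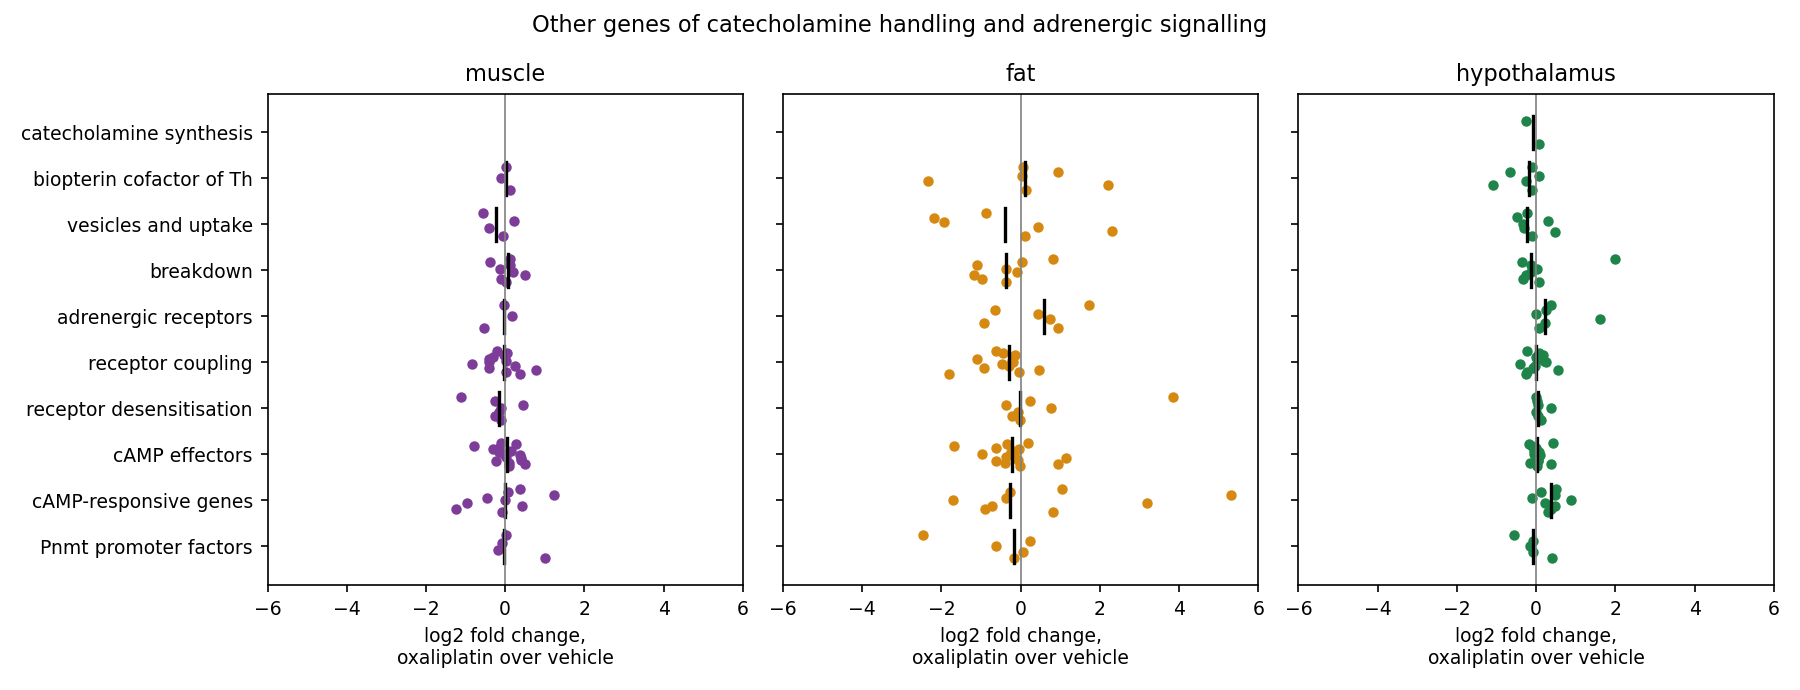
Log2 fold change of oxaliplatin over vehicle for the other genes of catecholamine handling and adrenergic signalling, by gene list (rows) and tissue (panels). Points are genes and black bars are list medians. The widest values are in fat, from -2.48 for Tfap2a to 5.31 for Nr4a3.

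Of 6 other adrenergic receptor genes tested in fat, 4 had a positive and 2 a negative log2 fold change, and none was called. Adra1a, an alpha-1 receptor that signals through calcium, averaged 41.7 ± 19.98 CPM in oxaliplatin fat and 21.9 ± 3.1 CPM in vehicle fat, without overlap (0.93 ± 0.37, edgeR adjusted p = 0.171). In muscle 3 were tested and none was called, among them Adra1a at -0.54 ± 0.30 (adjusted p = 0.633) and Adra2b at 0.17 ± 0.17 (adjusted p = 0.859). In hypothalamus 5 of 6 were positive with a median of 0.23, and those of smallest p were Adra1d at 1.61 ± 1.004 (adjusted p = 0.619), which had 11.6 CPM in oxaliplatin mouse 2 and 1.15 to 1.54 CPM in the other oxaliplatin mice, and Adra1b at 0.21 ± 0.14 (0.627).

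Among the other breakdown genes in fat, 6 of 8 were negative with a median of -0.37 and none was called. Aldh1a1, an aldehyde dehydrogenase best known for retinal, averaged 50.2 ± 15.4 CPM with oxaliplatin and 113 ± 34.8 CPM with vehicle, without overlap (-1.17 ± 0.29, edgeR adjusted p = 0.114). In muscle Aldh1a1 was 380 ± 44.7 and 269 ± 66.1 CPM, with the opposite sign and overlapping groups (0.50 ± 0.17, adjusted p = 0.340). Akr1b3, aldose reductase, gave -0.32 ± 0.10 in hypothalamus (adjusted p = 0.351). Sult1a1, a sulfotransferase of phenols and amines, averaged 26.9 ± 14.4 and 6.79 ± 1.29 CPM there, with overlapping groups (1.99 ± 0.59, adjusted p = 0.388). Of the uptake and vesicle genes in fat, Slc22a3, an extraneuronal monoamine transporter, averaged 21.5 ± 21.9 and 97.4 ± 21.7 CPM without overlap (-2.18 ± 0.74, adjusted p = 0.143). Slc18a1, the endocrine vesicular monoamine transporter, averaged 1.90 ± 0.65 and 0.374 ± 0.037 CPM without overlap (2.32 ± 0.40, adjusted p = 0.0878).

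Downstream of the receptors, 12 of 13 G protein and adenylyl cyclase genes were negative in fat, with a median of -0.30, and none was called. The 1 positive gene, Adcy4, an adenylyl cyclase, averaged 41.8 ± 3.1 CPM with oxaliplatin and 30.2 ± 1.5 CPM with vehicle, without overlap (0.47 ± 0.11, edgeR adjusted p = 0.114). Gnas, the stimulatory alpha subunit, averaged 479 ± 79.5 CPM with oxaliplatin and 731 ± 116 CPM with vehicle, without overlap (-0.61 ± 0.19, edgeR adjusted p = 0.130). Among the cyclic AMP effectors 13 of 16 were negative, with a median of -0.22, while Pde3a, a phosphodiesterase, had the other sign at 38.8 ± 12.4 and 20.1 ± 1.4 CPM (0.95 ± 0.26, adjusted p = 0.118). Rgs2, which shortens G protein signals, averaged 124 ± 75.6 and 8.61 ± 1.65 CPM in fat without overlap (3.85 ± 0.83, adjusted p = 0.114), and in muscle 1.61 ± 0.48 and 3.47 ± 1.18 CPM, also without overlap (-1.11 ± 0.29, adjusted p = 0.192). The fat effect on Rgs2 minus the muscle effect was 5.00 ± 0.85 (edgeR interaction test, adjusted p = 0.0315), where 0.239% of all genes were called. Rgs2 comes from a list drawn up with earlier results of these data known, so this p-value is a description. Of the cyclic AMP-responsive genes, 5 of 9 were positive in muscle, 4 of 9 in fat with a median of -0.26, and 8 of 9 in hypothalamus with a median of 0.37, and none was called. In hypothalamus they included the kinase gene Sik1 at 61.8 ± 5.2 and 43.4 ± 3.4 CPM (0.51 ± 0.10, adjusted p = 0.127) and the nuclear receptor gene Nr4a1 at 22.3 ± 5.5 and 12.1 ± 2.1 CPM (0.88 ± 0.20, adjusted p = 0.237). In fat the nuclear receptor gene Nr4a3 averaged 80.6 ± 85.2 and 2.03 ± 0.61 CPM without overlap (5.31 ± 1.48, adjusted p = 0.121), and in muscle the thyroid hormone deiodinase gene Dio2 averaged 0.561 ± 0.139 and 1.33 ± 0.28 CPM without overlap (-1.23 ± 0.29, adjusted p = 0.134).

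In hypothalamus Th averaged 50.1 ± 30.6 CPM with oxaliplatin and 59.5 ± 18.5 CPM with vehicle (-0.25 ± 0.67, edgeR adjusted p = 0.911), and Ddc 53.2 ± 20.9 and 50.1 ± 10.0 CPM (0.09 ± 0.34, adjusted p = 0.942). Both groups overlapped in both genes, and Th was lowest, at 9.42 CPM, in oxaliplatin mouse 2. Qdpr, which recycles the biopterin cofactor, averaged 87.4 ± 32.0 and 139 ± 9.7 CPM (-0.67 ± 0.25, adjusted p = 0.453). Dbh had 0 to 7 counts per oxaliplatin library and 0 to 5 per vehicle library and was not tested.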

How the data were processed

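RNA was sequenced from 23 mouse tissue samples, with 1 library each. Per the labels' protocols, magnetic beads were used to isolate RNA, and libraries were made with a SMARTer kit for muscle and a ribosomal depletion kit for the other tissues. The submitters' processing notes name STAR 2.5.1a, Partek and DESeq2, and the series' design text says that Partek gave the authors' own comparison. The values that the authors deposited are unscaled expected counts of each gene. They were rounded to whole numbers (45.7%, 41.4% and 49.1% of values in muscle, fat and hypothalamus were not whole), since counts had been planned for. Every row summed to at least 10. No source used here names the build. Gene starts equalled GENCODE M21 (GRCm38) for 99.4% or more of shared identifiers.

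Groups follow the titles, and nothing was blocked. Mouse numbers name different animals in the 2 groups. No pair of libraries of a group was a copy (lowest chi-square per degree of freedom 7.37 over 34 pairs). Each tissue was fitted alone in edgeR 4.0.16 (filterByExpr with minimum count 10 and minimum total 15, TMM, robust quasi-likelihood F test, Benjamini-Hochberg), which kept 14737, 19870 and 18941 genes. An SE is the log2 fold change divided by the square root of F. Alternatives used limma 3.58.1 (voom) and DESeq2 1.42.0. CPM were divided by TMM factors, and log2 CPM used a prior count of 2. Exon length is the union of GENCODE M21 exons. Fits were tested on simulated data.

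The genes and the lists were chosen with earlier results of these data known. Beside the 6 genes, the text names any called pathway gene and, where a list has none, up to 2 of smallest p with a mean of 1 CPM, values only. The likeness rule took the 5 named genes of highest Pearson correlation. Tcap and Pgap3 were given as neighbours of Pnmt. Th, Ddc and Dbh in muscle, Dbh in hypothalamus and the single marker genes fall outside these rules and were chosen after their values were seen. Library sizes limit low genes, and 3 counts were taken as the detection floor. Some genes of the lists are not reported here by name.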

Additional observations from a re-analysis of the deposited data

Results flagged for a closer look

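In groups of 4 to 10 libraries, 97 sets of values were examined for 1 library far from the rest, and 5 were found. The rule flags about 1 in 20 sets of independent, normally distributed values. These CPM share libraries and include values of a few counts, so that rate need not hold here. Whether the 5 go beyond chance was not tested. Adrb3 in fat of oxaliplatin mouse 5 was 350 CPM, against 64.9 to 102 CPM in the other oxaliplatin mice. Pnmt in hypothalamus of oxaliplatin mouse 3 was 0.0411 CPM, which is 1 count where the others had 2. Adrb1 in muscle of oxaliplatin mouse 3 was 0.150 CPM, which is 3 counts where the others had 0 or 1. Adra1d in hypothalamus of oxaliplatin mouse 2 was 11.6 CPM, against 1.15 to 1.54 CPM in the other oxaliplatin mice. Slc29a4, a plasma membrane monoamine transporter, was 34.9 CPM in hypothalamus of oxaliplatin mouse 5, against 20.8 to 23.0 CPM in the others.

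The oxaliplatin effect on Rgs2 in fat minus that in muscle was 5.00 ± 0.85 on the log2 scale (edgeR interaction test, adjusted p = 0.0315), where 0.239% of all genes tested were called. Rgs2 was listed with earlier results of these data known, so this p-value is a description. In fat its 4 oxaliplatin libraries lay above the 3 vehicle libraries, and in muscle its 5 oxaliplatin libraries lay below the 4 vehicle libraries. The fat libraries of oxaliplatin mice 2 to 4 had 2812 to 3223 Rgs2 counts, and that of mouse 5 had 233.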

How the results depend on the processing

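Pnmt in muscle kept its direction and its call, with a log2 fold change of 3.14 to 3.54 when 1 library was left out. The exception was oxaliplatin mouse 5 counted as vehicle, which gave 1.47. There 0 of the 4 genes of the set tested in muscle and 0 genes in all were called. Since Pnmt was picked with this comparison known, these refits of the same libraries describe its value and carry no test. The genes called in muscle were 24, and 254 with DESeq2, 42 with no filter on low counts, 91 in 1 fit over all 23 libraries and 2 to 17 without 1 library. In fat the 0 genes called became 2417 with DESeq2, 2909 in the 23-library fit and 0 to 4969 without 1 library, the 4969 being without oxaliplatin mouse 5 (6 without mouse 2). Of the 5 genes of the set tested in fat, 1 was called with DESeq2, 1 in the 23-library fit and 0 to 2 without 1 library. In hypothalamus 28 became 255 with DESeq2, 16 with limma-voom, 55 in the 23-library fit and 0 to 655 without 1 library. The other pathway genes called, 0 in each tissue, became 4, 15 and 2 with DESeq2 in muscle, fat and hypothalamus, 2, 22 and 1 in the 23-library fit, and 0 to 30 in fat and 0 to 5 in hypothalamus without 1 library. Pnmt has no value in the 23-library fit. The causes were not tested.

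Mouse numbers were not shown to pair the libraries: deviations of same-numbered mice correlated at -0.18 to 0.17 in muscle (4 pairs), -0.28 and -0.18 in fat and -0.01 and 0.03 in hypothalamus. Across tissues within a group (7 pairs each), they correlated at 0.03 to 0.16 for fat and hypothalamus. The values were -0.21 to 0.08 for fat and muscle, and -0.11 to 0.08 for muscle and hypothalamus. A replicate block by mouse number called 3 muscle genes, 0 fat genes and 37 hypothalamus genes, with 1 other pathway gene in hypothalamus, and gave 3.16 for Pnmt. In that block a library whose number occurs in 1 group alone adds nothing to the effect. The fat and hypothalamus effects then rest on the libraries numbered 2 and 4, and the muscle effect leaves out oxaliplatin mouse 5. Adra2a in fat moved to -1.66, where it was -0.51. In hypothalamus Adrb1 moved to 0.74, where it was 0.39, and Adrb3 to 1.21, where it was 0.62. These shifts come with fewer libraries and not with the block alone. The fat minus hypothalamus levels of the 5 genes kept their direction and their side of the threshold in all 11 alternatives. These included a block by mouse number within group. That block turned the Maoa effect in muscle minus hypothalamus to 0.11, where it was -0.02.

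Groups of 3 to 5 mice limit all of this. The p-values set a difference against the spread between mice within groups, and that spread is estimated in part from all genes. Counting error dominates genes below about 10 counts per library.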

Other observations

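Adcy4, an adenylyl cyclase, was higher without overlap of the groups in each tissue, though not called in any: 9.39 ± 1.84 CPM with oxaliplatin and 5.44 ± 1.15 CPM with vehicle in muscle (0.79 ± 0.19, edgeR adjusted p = 0.143), 41.8 ± 3.1 and 30.2 ± 1.5 CPM in fat (0.47 ± 0.11, adjusted p = 0.114), and 5.02 ± 0.61 and 3.43 ± 0.39 CPM in hypothalamus (0.55 ± 0.17, adjusted p = 0.371). Adcy4 was picked from the 83 other pathway genes and set beside itself across tissues after its values were seen. Over all genes tested, the share without overlap was 3.89% (muscle), 21.5% (fat) and 9.93% (hypothalamus). How often a gene has groups apart in every tissue at once was not computed, so nothing is read from this pattern. The endothelial markers summed to 173 to 203 CPM with oxaliplatin and 114 to 153 CPM with vehicle in muscle, 988 to 1082 and 744 to 1093 CPM in fat, and 196 to 315 and 109 to 124 CPM in hypothalamus, and their part in the Adcy4 values was not tested.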
